A study of Mus musculus with 47 samples.

Results

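The 10 genes described here encode components of insulin, insulin-like growth factor (IGF) and leptin signalling: the receptor genes Insr, Igf1r and Lepr, the adaptor genes Irs1 and Irs2, the ligand gene Igf1, the binding protein genes Igfbp2 and Igfbp5, the feedback inhibitor gene Socs3 and the transcription factor gene Foxo1. They were chosen by symbol, through the Ensembl mouse identifiers of the count tables. No rule on their values was used, but earlier results of these data were known. All 10 were listed in both tables, among 33139 genes listed in brainstem and 31751 in hippocampus. Of these 10, 9 in brainstem and 8 in hippocampus reached the mean count of 50 per library that was required for the main test: Socs3 did not in either region, and Lepr did not in hippocampus.

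RNA sequencing was done on brainstem and whole hippocampus of male mice that were 12 months old. The study's methods specify the brainstem tissue as the medulla, both oblongata and spinalis. TG mice were homozygous for a transgene of human alpha-synuclein with the A30P mutation. It was expressed from the neuron-specific Thy1 promoter on a C57BL/6 background. WT mice, which descended from the outcross of that line, were bred separately. Both genotypes received either a standard diet (SD) or a high fat diet (HFD) from an age of 5 weeks, which gave the groups WT_SD, WT_HFD, TG_SD and TG_HFD in each region. Each group held 6 libraries, except WT_SD brainstem with 5. WT and TG mice were bred as separate colonies, so the transgene and other differences between the colonies cannot be told apart.

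Total counts ranged from 10020784 to 15078812 in the 23 brainstem libraries and from 11945971 to 17328447 in the 24 hippocampus libraries. Levels are given as CPM (TMM-normalized counts scaled to the reads in tested genes). The summed level of 6 hippocampal neuron markers was 606 to 844 CPM in hippocampus and 110 to 171 CPM in brainstem, and 6 hindbrain markers summed to 310 to 542 CPM in brainstem and to at most 0.517 CPM in hippocampus, where 3 of them were at 0. In these bulk samples, fewer cells of a type and less RNA per cell cannot be told apart.

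Insulin and IGF1 bind related receptor tyrosine kinases, which phosphorylate the adaptors IRS1 and IRS2 and through them activate the PI3K and AKT kinases. AKT keeps FOXO transcription factors out of the nucleus, so that FOXO1 is active when insulin or IGF input is low. IGF binding proteins carry IGF1 and limit or prolong its access to the receptor. Leptin, a hormone of fat tissue, acts through its receptor and the JAK-STAT pathway, and STAT3 induces SOCS3, which then inhibits the leptin and insulin receptors. High fat feeding is widely used to produce insulin and leptin resistance.

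Levels of different genes were compared per length, as normalized CPM per kb of the union of a gene's exons. In brainstem the order of the mean levels was Igfbp2, Igfbp5, Irs2, Insr, Igf1r, Foxo1, Igf1, Irs1, Lepr and Socs3. Igfbp2 stood at 20.3 ± 6.3 CPM per kb and Igfbp5 at 15.8 ± 2.41 (SD, n = 23), and their ranges over libraries overlapped. In that order, Irs2 at 8.27 ± 0.993 CPM per kb lay above Insr, and Foxo1 at 1.9 ± 0.21 above Igf1, with no overlap between libraries, while every other pair of neighbours overlapped. The lowest level belonged to Socs3, at 0.289 ± 0.0908 CPM per kb.

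In hippocampus the order was Igfbp5, Irs2, Igfbp2, Foxo1, Insr, Igf1r, Irs1, Igf1, Socs3 and Lepr. Igfbp5 led with 26.8 ± 1.79 CPM per kb (SD, n = 24), and no hippocampus library had it below the highest value of Irs2, which averaged 9.33 ± 1. Foxo1 stood at 6.22 ± 0.655 CPM per kb and above every value of Insr, whereas in brainstem it stood below Igf1r. Lepr was the lowest of the 10, at 0.17 ± 0.0612 CPM per kb. Gaps without overlap separated Igfbp5 from Irs2, Foxo1 from Insr, Igf1r from Irs1, and Igf1 from Socs3. The gap between Foxo1 and Insr depended on the length used. Per kb of the longest transcript, Insr averaged 5.21 CPM, above the lowest Foxo1 value of 4.81, and Foxo1 averaged 6.22.

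**Figure D1:**
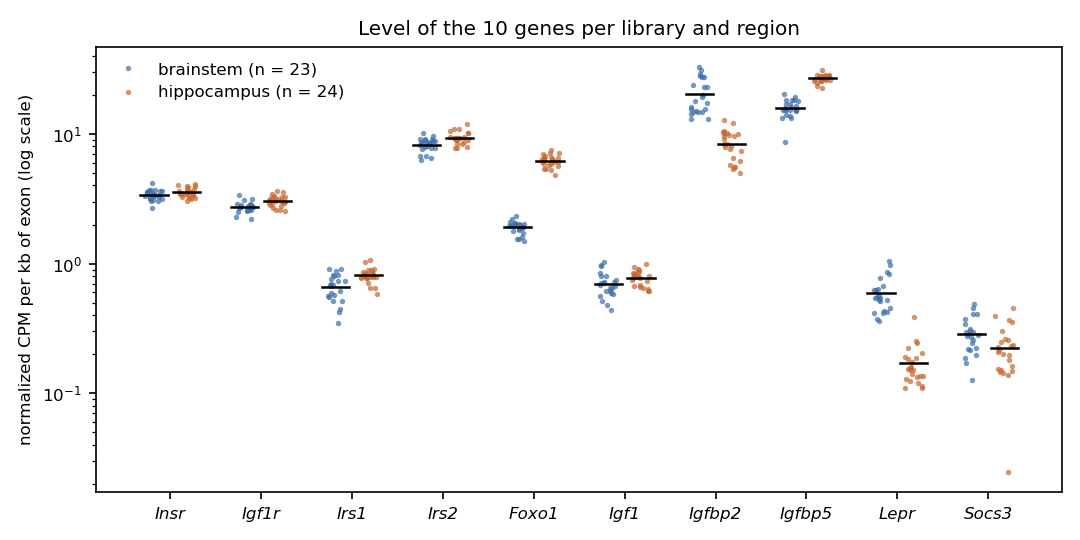
Level of each of the 10 genes in every library, as normalized CPM per kb of exon on a log axis; points are libraries of brainstem (n = 23) or hippocampus (n = 24) and black bars are means. Foxo1 and Igfbp5 are higher in hippocampus, Igfbp2 and Lepr are higher in brainstem, and the other 6 genes overlap widely between regions.

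The first comparison set hippocampus against brainstem, as the mean of the differences within the 4 groups. In the edgeR quasi-likelihood test, 2 of the 8 genes tested were higher in hippocampus, Foxo1 and Igfbp5, and 1, Igfbp2, was lower, with an adjusted p of at most 0.05 and a log2 fold change of at least 0.3. The regions differ widely: 29.2% of the 13462 genes tested were called higher in hippocampus and 31.0% lower, so such a share among the 10 genes is not particular to them. The libraries of the regions did not overlap for the same 3 genes, and they did not overlap for 35.0% of all genes tested.

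Foxo1, the main FOXO factor restrained by insulin, had a lowest, median and highest level of 12.9, 16.9 and 20.1 CPM in the brainstem libraries and of 41.7, 55.1 and 65.4 CPM in the hippocampus libraries. Every hippocampus library was therefore above every brainstem library. The log2 fold change was 1.71 ± 0.0459 (SE), a 3.27-fold difference (adjusted p = 2.58e-35), and it lay between 1.61 and 1.81 within the 4 groups. In GRCm38, 7.778% of the exon bases of Foxo1 are shared with an antisense gene, Gm20402, and whether strand was used in counting is not stated.

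Igfbp5, a binding protein that tethers IGFs to the extracellular matrix, had a lowest, median and highest level of 51.9, 92.4 and 121 CPM in brainstem and of 135, 162 and 186 CPM in hippocampus. Again no library overlapped. Its log2 fold change was 0.77 ± 0.0485 (SE), or 1.7-fold (adjusted p = 6.1e-20), and the values within groups ranged from 0.61 in WT_HFD to 0.90 in WT_SD.

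Igfbp2, which is abundant in choroid plexus, meninges and glia, went the other way. Its lowest, median and highest level was 23.9, 32.9 and 60.2 CPM in brainstem and 9.26, 15.4 and 23.4 CPM in hippocampus. The gap between the regions was thus narrow, from 23.4 to 23.9 CPM, and brainstem libraries varied more than those of hippocampus. The log2 fold change was -1.27 ± 0.0994 (SE), so that the level was 2.41-fold higher in brainstem (adjusted p = 1.84e-16), with values from -1.50 in TG_SD to -1.10 in WT_SD within groups. Igfbp2 and Igfbp5 are neighbours on chromosome 1 with opposite strands and convergent transcription, 5457 bases apart in GRCm38, and they differed between regions in opposite directions.

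Lepr, the leptin receptor, was tested between regions with the lower filter, a total count of 50 over all libraries, since its mean count was 52.7 in brainstem but 17 in hippocampus. Its lowest, median and highest level was 2.53, 3.83 and 7.43 CPM in brainstem and 0.772, 1.08 and 2.73 CPM in hippocampus. Of the brainstem libraries, 21 of 23 were above every hippocampus library, and 1 hippocampus library, TG_HFD replicate 5 at 2.73 CPM, reached the brainstem range. The log2 fold change was -1.74 ± 0.128 (SE), a 3.35-fold difference (adjusted p = 6.32e-18), where 33.1% of the 23108 genes tested with this filter were called lower in hippocampus.

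**Figure D2:**
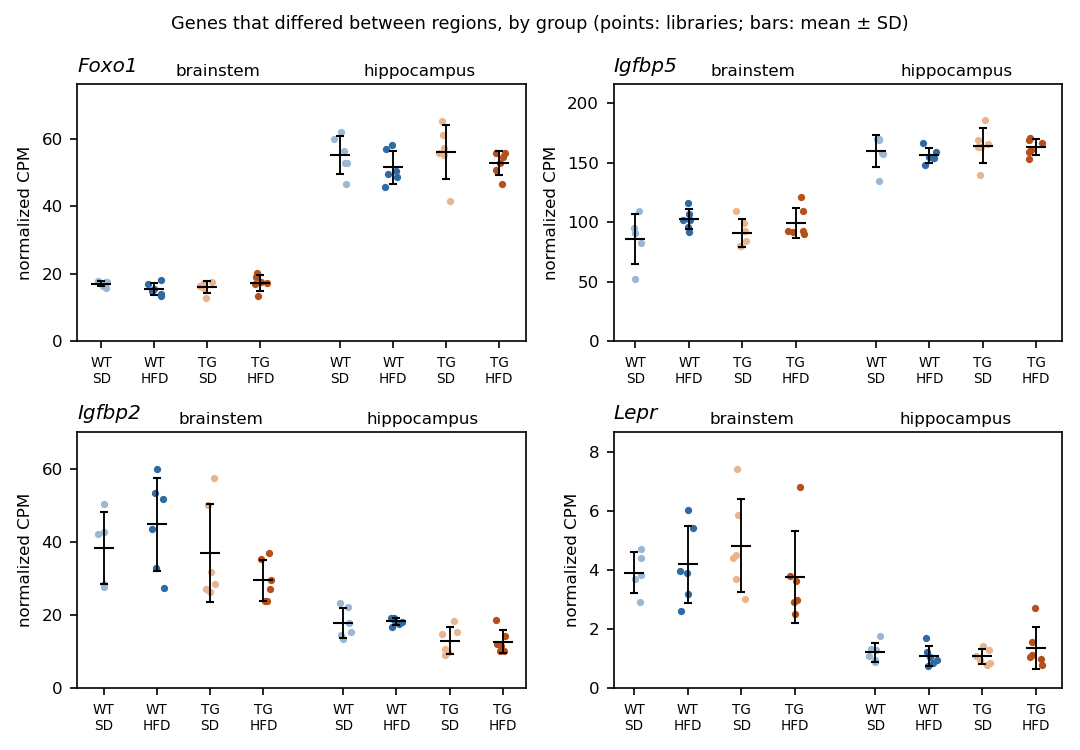
Normalized CPM of Foxo1, Igfbp5, Igfbp2 and Lepr by region, genotype and diet; points are libraries and bars are mean ± SD over 5 or 6 libraries. Libraries of the regions do not overlap for Foxo1, Igfbp5 and Igfbp2, while the diet groups within a region and genotype overlap for all 4 genes.

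Choroid plexus markers varied strongly among the brainstem libraries. The sum of Ttr, Folr1, Kcnj13, Kl, Clic6 and Otx2 ran from 12.4 to 2960 CPM there, with a median of 271 CPM, and from 38.4 to 317 CPM in hippocampus, and none of the 6 markers was at 0 in a region. The libraries with the highest Lepr, TG_SD replicate 2 at 7.43 CPM and TG_HFD replicate 3 at 6.82 CPM, had marker sums of 2960 and 2440 CPM, and WT_HFD replicate 7, with a sum of 2890 CPM, had a Lepr level of 5.45 CPM. In the 10 brainstem libraries with a sum of at most 60 CPM, a limit chosen after the values were seen, Lepr stood between 2.94 and 3.98 CPM, and in the other 13 between 2.53 and 7.43 CPM. Igfbp2 had a median of 28.2 CPM in the former and of 42.7 CPM in the latter. With those 10 brainstem libraries alone, the log2 fold change between regions was -1.46 for Lepr (adjusted p = 2.5e-12), -1.0 for Igfbp2 (adjusted p = 9.02e-12), 0.82 for Igfbp5 and 1.74 for Foxo1, and the same 3 genes were called with the main filter. Lepr was then above every hippocampus library in each of the 10. The limit was applied to brainstem only, and hippocampus libraries were kept whatever their marker sum. The part of choroid plexus in the region differences was thus not tested.

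**Figure D3:**
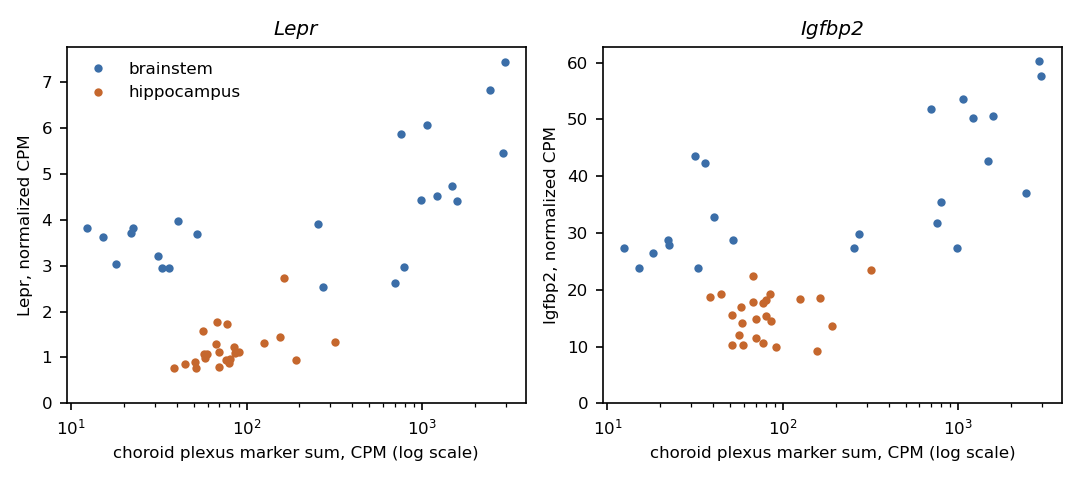
Normalized CPM of Lepr and Igfbp2 in each library against the summed CPM of 6 choroid plexus markers (log axis), in brainstem and hippocampus. The 3 highest values of each gene come from brainstem libraries with marker sums of at least 1060 CPM. Lepr in the 10 brainstem libraries with sums of at most 60 CPM lies above every hippocampus library, where no such limit was applied.

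Other cell type markers also differed between the regions, and their part in the region differences was not tested. The sum of 6 oligodendrocyte markers was 12300 to 20700 CPM in brainstem and 2990 to 4640 CPM in hippocampus, and that of 6 endothelial markers was 286 to 355 CPM against 154 to 214 CPM. The sum of 6 astrocyte markers was lower in brainstem, at 2580 to 3470 CPM, than in hippocampus, at 3990 to 5030 CPM. The sum of 6 microglial markers was 196 to 283 CPM in brainstem and 250 to 323 CPM in hippocampus, and that of 4 blood cell markers was 494 to 2890 CPM against 132 to 468 CPM. The sums of 6 meningeal fibroblast markers overlapped, at 54.3 to 93.1 CPM and 59.6 to 119 CPM. No marker of these lists was at 0 in a region.

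The tyrosine kinase receptor genes, the adaptors and the ligand were not called between regions. Igf1r, the IGF1 receptor gene, had medians of 45.9 and 51.1 CPM in brainstem and hippocampus and differed by 0.16 ± 0.0365 (SE) on the log2 scale, with an adjusted p of 0.000135. Irs2, the adaptor of the pair with the higher level per length, had medians of 54 and 58.5 CPM and a log2 fold change of 0.17 ± 0.0443 (adjusted p = 0.000457). Igf1, the ligand gene, had medians of 6.76 and 7.76 CPM and a log2 fold change of 0.17 ± 0.0728 (adjusted p = 0.03). All 3 were below the log2 threshold of 0.3 and overlapped between regions. With an offset for GC content the difference of Irs2 was lost, at -0.01, and that of Igf1 was 0.31 and past both thresholds. With 7 surrogate variables in the model, Irs2 was at 0.01 (adjusted p = 0.764) and Igf1 at 0.11 (adjusted p = 0.236).

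Irs1 lay at the threshold. Its medians were 6.27 CPM in brainstem and 7.31 CPM in hippocampus, and its log2 fold change of 0.28 ± 0.0783 (SE) had an adjusted p of 0.000934 but stayed below 0.3. It was 0.30 with DESeq2, which calls it, and 0.12 with 7 surrogate variables (adjusted p = 0.288). Within the groups it was called in WT_HFD, at 0.52 ± 0.156 (adjusted p = 0.00273), and not in the other 3. It reached 0.31 without TG_SD brainstem replicate 6, 0.31 without TG_HFD brainstem replicate 7, 0.32 without WT_HFD brainstem replicate 7 and 0.30 without WT_SD hippocampus replicate 6. Of the exon bases of Irs1, 30.862% are shared with a gene on the other strand, Gm9747, so these reads may not all be from Irs1.

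Insr and Socs3 did not pass the test between regions. Insr, the insulin receptor gene, had medians of 46.3 and 47.7 CPM, and the regions differed by 0.06 ± 0.0365 (SE) on the log2 scale, with an adjusted p of 0.0946. Its 95% interval, from the SE and a normal approximation, ran from -0.01 to 0.14. Socs3 had medians of 0.817 and 0.61 CPM with mean counts of 10.5 and 9.17 reads per library, and a log2 fold change of -0.27 ± 0.163 with the lower filter (interval -0.59 to 0.05), so that a difference of this size was not detectable at this depth.

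**Figure D4:**
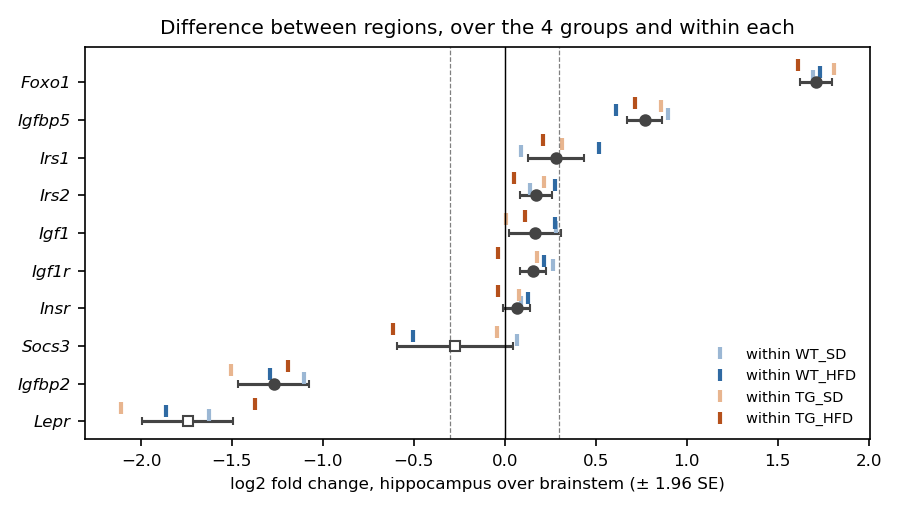
Log2 fold change of hippocampus over brainstem for the 10 genes, with 95% intervals; filled circles are genes tested with the main filter, open squares Lepr and Socs3 with the lower filter, coloured ticks the values within each group and dashed lines the threshold of 0.3. Foxo1 (1.71) and Igfbp5 (0.77) lie to the right, Igfbp2 (-1.27) and Lepr (-1.74) to the left.

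Sequence before a transcription start of RefSeq (GRCm38.p6) was available for 9 of the 10 genes. RefSeq starts can differ from the gene bounds of GENCODE M21. The window of Socs3 lies inside the GENCODE gene, which spans bases 117966079 to 117970047. That of Igf1, not shown, also lies inside its GENCODE gene. The 250 bases upstream of the start are shown for the 3 genes called between regions, and for Irs2 and Socs3, an adaptor gene that FOXO1 is known to activate and the feedback inhibitor gene of leptin signalling. Searched on both strands were TGTTTTG, the core of insulin response sequences, GTAAACA, a FOXO site, TTCNNNGAA, a STAT site, and GGGCGG, a GC box. Matches are printed in capitals and describe letters only.
Foxo1 (chr3:52268087-52268336, plus strand): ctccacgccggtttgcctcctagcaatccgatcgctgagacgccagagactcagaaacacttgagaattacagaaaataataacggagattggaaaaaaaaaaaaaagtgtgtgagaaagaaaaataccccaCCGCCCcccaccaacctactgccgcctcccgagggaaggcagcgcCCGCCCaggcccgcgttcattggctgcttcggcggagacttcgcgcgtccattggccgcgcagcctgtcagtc
Igfbp5 (chr1:72874866-72875115, minus strand): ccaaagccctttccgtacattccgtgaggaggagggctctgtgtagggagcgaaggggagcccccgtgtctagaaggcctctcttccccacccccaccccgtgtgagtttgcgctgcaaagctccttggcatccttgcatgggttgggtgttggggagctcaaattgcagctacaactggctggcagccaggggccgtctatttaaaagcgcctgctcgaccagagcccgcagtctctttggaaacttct
Igfbp2 (chr1:72824230-72824479, plus strand, the first of 2 starts): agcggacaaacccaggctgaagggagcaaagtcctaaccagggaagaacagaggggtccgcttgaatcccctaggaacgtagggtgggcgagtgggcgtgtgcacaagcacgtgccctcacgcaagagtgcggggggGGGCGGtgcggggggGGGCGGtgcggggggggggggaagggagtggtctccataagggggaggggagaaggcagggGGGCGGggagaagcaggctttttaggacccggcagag
Irs2 (chr8:11008930-11009179, minus strand): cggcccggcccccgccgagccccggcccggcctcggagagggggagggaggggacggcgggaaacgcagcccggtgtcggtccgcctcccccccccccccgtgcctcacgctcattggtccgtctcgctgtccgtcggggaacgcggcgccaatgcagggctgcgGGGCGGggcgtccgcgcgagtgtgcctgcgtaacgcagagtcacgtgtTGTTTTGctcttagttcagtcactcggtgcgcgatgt
Socs3 (chr11:117969367-117969616, minus strand): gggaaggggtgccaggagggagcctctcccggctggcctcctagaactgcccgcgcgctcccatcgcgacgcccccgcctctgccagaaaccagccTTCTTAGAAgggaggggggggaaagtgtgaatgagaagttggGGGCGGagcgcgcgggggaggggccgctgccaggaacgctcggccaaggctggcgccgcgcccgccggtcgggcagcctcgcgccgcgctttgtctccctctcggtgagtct

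Foxo1 held 2 GC boxes, Igfbp2 held 3 and Igfbp5 held no match to any of the 4 motifs. Irs2 held 1 insulin response core, 37 bases before the start, Irs1, not shown, held 2, and the window before the second of 2 starts of Lepr, not shown, held 1. Socs3 held 1 STAT match, in a window that is within the gene as annotated in GENCODE M21. Over 32851 promoter windows of the same length, 5.56% held the insulin response core, 3.17% the FOXO site, 7.02% the STAT site and 32.7% the GC box. The FOXO site was in no window of the 9 genes.

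The question of the diet was whether HFD altered these genes in either genotype or region, and no member passed the test in any of the 4 diet comparisons. In edgeR's test the lowest adjusted p of a member was 0.896 in WT brainstem, 0.695 in TG brainstem, 0.843 in WT hippocampus and 0.551 in TG hippocampus. DESeq2 called none either. Few genes of any kind were called: 0% of the genes tested in WT brainstem, 0.00750% in TG brainstem, 0% in WT hippocampus and 0% in TG hippocampus. An unadjusted p of at most 0.05 was reached by 1 of 9 members in WT brainstem, 1 of 9 in TG brainstem, 0 of 8 in WT hippocampus and 1 of 8 in TG hippocampus, where 5.43%, 6.91%, 6.41% and 7.08% of all genes tested did. The median log2 fold change of the members was 0.01, 0.00, -0.03 and -0.03 in these comparisons, and that of all genes was -0.01, 0.00, 0.00 and 0.00.

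In WT brainstem the member with the lowest p was Igfbp5. Its level was 109, 94.8, 51.9, 91.2 and 82.8 CPM in the 5 WT_SD libraries, and its lowest, median and highest level was 91.6, 102 and 116 CPM in WT_HFD. The groups overlapped, and 1 WT_SD library, replicate 6, stood far below the rest. HFD over SD gave a log2 fold change of 0.27 ± 0.0879 (SE, unadjusted p = 0.00477, adjusted p = 0.896). The other 8 members lay between -0.19 for Irs1 and 0.12 for Lepr.

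In TG brainstem it was Igf1r. Its level ran from 42.2 to 46.4 CPM in TG_SD with a median of 44.2 CPM, and from 47.6 to 56.9 CPM in TG_HFD with a median of 48.1 CPM. All TG_HFD libraries were above all TG_SD libraries. Groups that did not overlap, in either direction, were found for 0.172% of all genes tested in this comparison and for 1 of the 9 members. With 4 surrogate variables in the model the log2 fold change was 0.11 ± 0.0515 (SE, unadjusted p = 0.0364, adjusted p = 0.695), and without them it was 0.18 (adjusted p = 0.756). It was 0.07 without TG_HFD replicate 3. No member's groups were apart in the other diet comparisons, where 0.405% of genes in WT brainstem, 0.512% in WT hippocampus and 0.0452% in TG hippocampus had groups that did not overlap. The other 8 members in TG brainstem lay between -0.21 for Lepr and 0.04 for Insr.

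In WT hippocampus the log2 fold changes of the 8 members tested lay between -0.10 for Igfbp5 and 0.08 for Irs1. In TG hippocampus Foxo1 had the lowest p. Its lowest, median and highest level was 41.7, 56.6 and 65.4 CPM in TG_SD and 46.6, 53.9 and 55.8 CPM in TG_HFD, so that the TG_HFD libraries lay inside the range of the TG_SD libraries. On the log2 scale the difference was -0.13 ± 0.0515 (SE, unadjusted p = 0.0143, adjusted p = 0.551), and -0.08 without TG_SD replicate 6. The median sum of hippocampal neuron markers was 758 CPM in TG_SD and 687 CPM in TG_HFD, and its part in this value was not tested. The other 7 members lay between -0.07 for Igf1r and 0.09 for Igf1.

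Choroid plexus markers ran from 12.4 to 2960 CPM across the brainstem diet groups. The 10 brainstem libraries with a sum of at most 60 CPM held 3 of WT_SD, 2 of WT_HFD, 2 of TG_SD and 3 of TG_HFD. Fitted without surrogate variables, they gave no call for diet in any member, nor in any of the 13388 genes tested. With so few libraries per group, this says little about the members. The log2 fold changes were 0.38 for Igfbp5 in WT (adjusted p = 0.813) and 0.14 for Igf1r in TG (adjusted p = 1.0).

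The intervals around these values differ with the depth of each gene. For the insulin receptor gene Insr, the interval of the diet difference was -0.11 to 0.16 in WT brainstem, -0.09 to 0.17 in TG brainstem, -0.05 to 0.14 in WT hippocampus and -0.13 to 0.03 in TG hippocampus. For Irs2 it was -0.13 to 0.06, -0.09 to 0.09, -0.06 to 0.13 and -0.13 to 0.04 in the same order. All 8 intervals lay inside the threshold of 0.3 in either direction. Those of Lepr and Socs3, the leptin pathway members, were much wider: Socs3 in TG brainstem had a log2 fold change of 0.48 with an interval from -0.11 to 1.06, and Lepr in TG hippocampus one of 0.30 with an interval from -0.21 to 0.82. The lowest, median and highest level of Socs3 was 0.368, 0.673 and 0.902 CPM in TG_SD brainstem and 0.792, 0.87 and 1.4 CPM in TG_HFD brainstem, and these ranges overlapped.

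**Figure D5:**
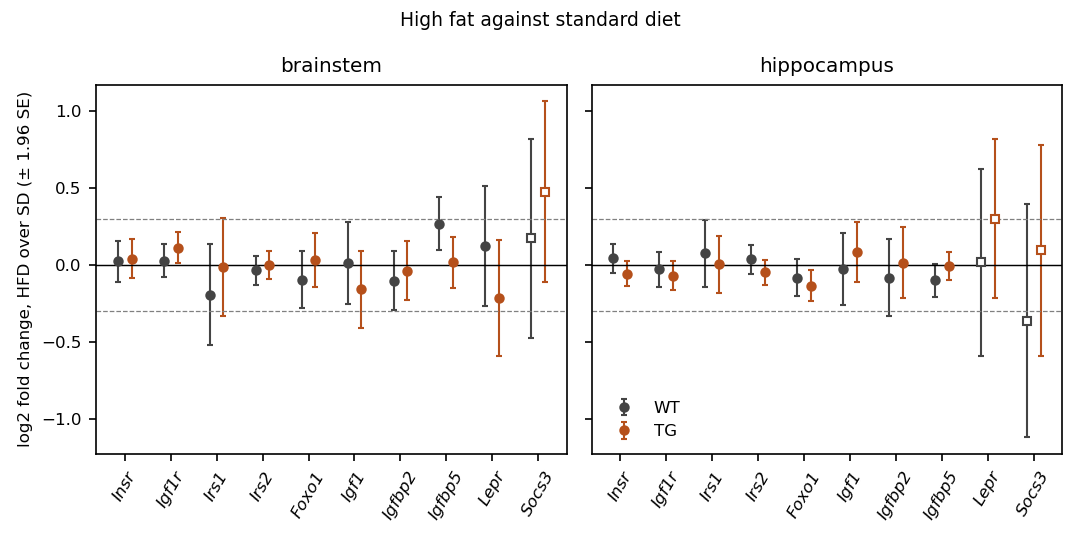
Log2 fold change of HFD over SD for the 10 genes in WT (grey) and TG (orange) mice, in brainstem and hippocampus, with 95% intervals; open squares were tested with the lower filter and dashed lines mark 0.3. Bars of Insr, Igf1r and Irs2 stay within the dashed lines, and the bars of Socs3 are much wider, reaching 1.06 in TG brainstem.

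Whether the diet acted differently in the genotypes was asked with the interaction term, and whether it acted differently in the regions with a model of all libraries. No member passed the interaction test in brainstem (lowest adjusted p = 0.993) or hippocampus (lowest adjusted p = 0.901), where 0.00750% and 0% of genes were called. None had an unadjusted p of at most 0.05, against 4.83% and 5.98% of all genes. With the main filter, Lepr in brainstem had an interaction of -0.34 on the log2 scale with an SE of 0.296, and with the lower filter Socs3 in hippocampus had 0.46 with an SE of 0.541.

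Between regions, the diet difference was not called for any member in WT or TG mice, nor for any other gene (0% and 0%). An unadjusted p of at most 0.05 was found for Igfbp5 in WT, where the diet difference was lower in hippocampus by a log2 value of -0.29 ± 0.138 (SE, unadjusted p = 0.0435, adjusted p = 1.0; -0.15 without WT_SD brainstem replicate 6), and for Igf1r in TG, with -0.21 ± 0.102 (SE, unadjusted p = 0.0422, adjusted p = 0.999). These were 1 of 8 members each, and 2.28% of all genes in WT and 3.30% in TG reached this p. With the lower filter the value of Lepr in TG was 0.74 ± 0.362 (SE, unadjusted p = 0.0469, adjusted p = 1.0), and 0.33 (unadjusted p = 0.402) with the 10 brainstem libraries of low choroid plexus markers.

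TG and WT mice were also compared on each diet, and no member passed the main test. The share of genes called was 0.142% on SD and 0.0525% on HFD in brainstem, and 0.0980% on SD and 0.226% on HFD in hippocampus. In the same order, 2 of 9, 0 of 9, 1 of 8 and 2 of 8 members had an unadjusted p of at most 0.05, beside 10.5%, 5.59%, 9.08% and 11.3% of all genes. DESeq2 called none either.

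Igf1 had the lowest p of any member in these 4 comparisons. Its level was 9.7, 5.8, 4.33, 6.42 and 5.56 CPM in the 5 WT_SD brainstem libraries, and its lowest, median and highest level was 5.91, 7.26 and 9.46 CPM in TG_SD brainstem. The highest value belonged to a WT_SD library, so the groups overlapped. TG over WT gave a log2 fold change of 0.40 ± 0.128 (SE, unadjusted p = 0.00411, adjusted p = 0.227), and 0.25 without surrogate variables (adjusted p = 0.792). In the same comparison Igfbp5 had a log2 fold change of 0.19 ± 0.0836 (SE, unadjusted p = 0.0291, adjusted p = 0.404), and of 0.08 without WT_SD replicate 6 (adjusted p = 0.835). The WT_SD and TG_SD libraries of brainstem are shared by the diet and genotype comparisons, so the values of Igfbp5 in both rest on the same WT_SD libraries.

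The median of Igfbp2 was lower in TG than in WT in both regions and on both diets. In brainstem the medians were 42.4 CPM in WT_SD and 30.2 CPM in TG_SD, and 47.7 CPM in WT_HFD and 28.5 CPM in TG_HFD. The means of WT_SD and TG_SD were close, at 38.4 CPM (standard deviation 9.91, n = 5) and 37 CPM (13.4, n = 6). Their log2 fold change was -0.19, with an unadjusted p above 0.05. On HFD the means in brainstem were 44.9 CPM (standard deviation 12.7, n = 6) in WT and 29.6 CPM (5.67, n = 6) in TG. The log2 fold change on HFD there, from the fit with 4 surrogate variables, was -0.12 (adjusted p = 0.964). The 10 libraries with low choroid plexus markers, a limit chosen after the values were seen, held 2 of WT_HFD and 3 of TG_HFD. In these 10 libraries, fitted without surrogate variables, it was -0.62 on HFD (unadjusted p = 0.00385, adjusted p = 0.254) and -0.25 on SD (unadjusted p = 0.189). In hippocampus on SD its lowest, median and highest level was 13.6, 16.7 and 23.4 CPM in WT and 9.26, 12.7 and 18.4 CPM in TG. On HFD it was 16.9, 18.5 and 19.3 CPM in WT and 10.2, 11.8 and 18.6 CPM in TG, where all TG_HFD libraries but replicate 5 were below every WT_HFD library. The log2 fold change on SD was -0.31 ± 0.118 (SE, unadjusted p = 0.0124, adjusted p = 0.368), and -0.50 without WT_SD replicate 8. On HFD it depended on the surrogate variables: it was -0.22 (adjusted p = 0.637) with 4 of them, -0.50 (adjusted p = 0.0537) with 0, and -0.52 with 2, which passed the test (adjusted p = 0.01). With 4 it was -0.41 without TG_HFD replicate 5 and -0.12 without TG_HFD replicate 8. The sum of 6 endothelial markers was 182 to 207 CPM in WT_HFD and 154 to 184 CPM in TG_HFD hippocampus, and that of 6 hippocampal neuron markers was 694 to 775 CPM and 672 to 696 CPM. The part of these differences in the result was not tested.

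On HFD in hippocampus, Igfbp5 had a log2 fold change of TG over WT of 0.16 ± 0.0656 (SE, unadjusted p = 0.0179, adjusted p = 0.304) and Insr one of -0.12 ± 0.0564 (SE, unadjusted p = 0.0358, adjusted p = 0.391). Both were smaller without surrogate variables, at 0.07 and -0.03, and Igfbp5 was also at 0.07 without WT_SD hippocampus replicate 6, a library that enters through the surrogate variables and the shared estimate of spread. The lowest, median and highest level of Igfbp5 was 148, 155 and 167 CPM in WT_HFD and 153, 164 and 171 CPM in TG_HFD, and that of Insr was 45, 47.8 and 54.1 CPM and 43.8, 48.3 and 52 CPM, so the groups overlapped for both.

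The pathway around the members was followed with 73 other genes, of which 72 were listed in either region. They were grouped as ligands and binding proteins, receptors and receptor adaptors, the PI3K to mTOR branch, the JAK-STAT branch with its inhibitors, FOXO factors and their target genes, and neuropeptides that respond to leptin. Of these, 54 were tested in brainstem, 53 in hippocampus and 52 between regions. None was called in a diet, interaction or genotype comparison. In the diet comparisons 4 of 54 had an unadjusted p of at most 0.05 in WT brainstem, 2 of 54 in TG brainstem, 4 of 53 in WT hippocampus and 2 of 53 in TG hippocampus, beside 5.43%, 6.91%, 6.41% and 7.08% of all genes.

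In WT brainstem the pathway genes with the lowest p for diet were Ptpn11 and Pik3r1, with log2 fold changes of -0.11 and -0.11 and adjusted p of 0.896 for both. Ptpn11 encodes the phosphatase SHP2 and Pik3r1 a regulatory subunit of PI3K. In WT hippocampus Igfbp4, a binding protein gene, had a value of 0.18 ± 0.0508 (SE) on the log2 scale for HFD over SD, with an adjusted p of 0.496. Igfbp4 also came closest to a call between genotypes: on HFD in hippocampus TG over WT was -0.29 ± 0.0597 (SE, adjusted p = 0.0188), past the test but short of the log2 threshold. Npy, which encodes neuropeptide Y, had log2 fold changes of -0.15 (adjusted p = 0.722) in WT and -0.13 (adjusted p = 0.551) in TG hippocampus.

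Between regions 21 of the 52 pathway genes were called higher in hippocampus and 18 lower, where 29.2% and 31.0% of all genes were. Of the PI3K to mTOR branch 8 of 21 were higher and 5 lower, and its median log2 fold change was 0.11, against -0.02 for all genes. Of the receptors and adaptors 3 of 9 were higher and 5 lower, with a median of -0.54. Of the FOXO factors and FOXO target genes 4 of 11 were higher and 4 lower, and of the JAK-STAT branch 3 of 7 and 3 of 7. Among the values of lowest p were those of Npy, with a log2 fold change of 3.10 ± 0.0655 (SE), and of Igfbp4 with 1.79 ± 0.0506. Foxo6 had a log2 fold change of 3.62 and Foxo4 one of -0.41, but Foxo6 reached the count filter only through hippocampus, with 250 reads in all brainstem libraries together and 3630 in hippocampus. Gadd45a, on the same list, had -1.99 and reached the filter only through brainstem, with 1930 reads there and 569 in hippocampus. Both are included in the counts above, Foxo6 as higher and Gadd45a as lower, and their differences are descriptions.

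Binding protein genes did not go in 1 direction between regions. Igfbp3, Igfbp4 and the member Igfbp5 were higher in hippocampus, with log2 fold changes of 1.11, 1.79 and 0.77. Igfbp7 and the member Igfbp2 were lower, with -1.02 and -1.27. Of the ligands themselves, Igf2 had medians of 0.294 CPM in brainstem and 0.304 CPM in hippocampus, and Ins2 and Lep had medians of 0 in every region in which they were listed. Ins1 was listed in neither table.

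For each member tested in both regions, the 2 genes most alike in their variation among libraries were found from log2 CPM centred on the group means, by the mean of the Pearson correlations in brainstem (n = 23) and hippocampus (n = 24) over 12619 genes. These values are descriptions, since the libraries share depth and composition. Irs2 had the highest, with Slc12a5 at 0.86 and Lhfpl4 at 0.86, both genes of inhibitory neurotransmission in neurons. Igf1r was most like Nf1 at 0.84 and Ylpm1 at 0.83, and Insr was most like Arfgef3 at 0.81 and Dennd5b at 0.80. For Igf1 the genes were Golga4 at 0.75 and Usp29 at 0.73, and for Irs1 Vps13b at 0.73 and Ncor1 at 0.73. For Igfbp2 they were Serping1 at 0.70 and Ppp1r1b at 0.70, for Igfbp5 Tiam1 at 0.69 and Mmp14 at 0.67, and for Foxo1 Dhx9 at 0.70 and Cand1 at 0.69.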

How the data were processed

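RNA was extracted from brainstem and hippocampus, and poly(A) libraries were sequenced as single-end reads of 75 bases. Per the labels and the methods of the study, the authors checked reads with FastQC 0.11.9, aligned them with STAR 2.7.9a to a mouse genome with the transgene's sequence added, and used DESeq2 1.32.0. They deposited raw counts per gene, not normalized, 1 table per region. The step that assigned reads to genes, and its use of strand, are not given in the sources used here. Every library was grouped by its labels, and no column was left out. Levels of the transgene and of 1 pathway gene are not reported here. The study's methods give 6 animals per group, of which 1 WT_SD brainstem sample failed.

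A gene was tested in a region where its count averaged 50 or more per library, with edgeR 4.0.16 (R 4.3.3) by the quasi-likelihood test on TMM-normalized counts, with the 4 groups and 4 surrogate variables per region (sva 3.50.0). Regions were compared over all 47 libraries in 8 groups without surrogate variables, treating libraries of both regions as independent. The Benjamini-Hochberg adjustment ran over every tested gene. A gene was called when its adjusted p did not exceed 0.05 and its log2 fold change was 0.3 or more in either direction. Levels are TMM-normalized CPM over all libraries, with the reads of tested genes as the total. SE is the absolute log2 fold change over the square root of F. Lepr and Socs3, where below the filter, were tested with a total count of at least 50. Exon lengths and GC content came from GENCODE M21 (GRCm38) by Ensembl identifier, a build other than that of the alignment, so coordinates are those of the annotation and not of the counted models. The script for the fits was tested on simulated data.

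All 10 members were named, with full statistics for those with an unadjusted p of at most 0.05 in a diet, interaction or genotype comparison and for all of them between regions. Of the pathway genes, those called and up to 3 of lowest p per comparison could be named. Igfbp2 on HFD, Foxo6, Foxo4, Gadd45a, the ligands and the binding protein genes were singled out after their values were seen. The members and lists were chosen with earlier results of these data known. Alternatives were DESeq2 1.42.0, RLE size factors, other numbers of surrogate variables, other count filters, a replicate block, a GC offset and each library left out.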

Additional observations from a re-analysis of the deposited data

Results flagged for a closer look

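In each of the 8 groups, each member was examined for a library far from the others by Dixon's ratio, in 80 combinations of member and group, and chance alone flags about 1 in 20. It marked 1 combination: Lepr in TG_HFD brainstem replicate 3 stood at 6.82 CPM (83 reads), while the other 5 libraries of the group lay between 2.53 and 3.82 CPM. The ratio of the gap to the range was 0.701, above the critical value of 0.625. The summed choroid plexus markers of that library were 2440 CPM, and the part of these in its Lepr level was not tested.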

How the results depend on the processing

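The number of members called was 0 in each diet, interaction and genotype comparison and in each test of the diet difference between regions, under every alternative run except 1: with 2 surrogate variables it was 1, Igfbp2, for TG against WT on HFD in hippocampus. Between regions the number was 3, and 5 with a total count filter and 5 with no count filter, where Lepr enters the test and Irs1 passes. The log2 fold change of Irs2 between regions reversed to -0.007 with the GC offset (adjusted p = 0.87). With a library left out, 678 member log2 fold changes kept their sign and their call and 4, all of Irs1 between regions, gained a call, so that the number of members called ranged from 3 to 4 between regions and was 0 elsewhere. DESeq2, RLE size factors and the GC offset each gave 4 between regions. Leaving out the 13 brainstem libraries with choroid plexus markers above 60 CPM, an alternative chosen after seeing the data and fitted without surrogate variables, left the numbers of members called over all groups as they were, but within WT_SD 5 in place of 3 were called between regions, with Igf1r and Igf1 added. This left 2 or 3 brainstem libraries per group, and no gene tested within brainstem was called for diet. Replicate numbers are shared between groups, but the labels do not say that they pair animals. For that reason the numbers were not taken as pairs. Over 20 same-numbered pairs of diet groups, the correlation of deviations from the group means ran from -0.29 to 0.39. It was above 0.1 in 11 of these 20, and in 31 of 118 pairs with different numbers. Between regions it was above 0.1 in 10 of 17 same-numbered pairs and in 31 of 121 others. Libraries with the same number were thus more often alike, and the source of this was not tested. With the replicate block the numbers of members called were 0 and, between regions, 3. With exon length from the longest transcript, the level order changed only for neighbours whose libraries overlapped. The gap between Foxo1 and Insr in hippocampus was lost with that length, though their order held. Depth limits Socs3, with mean counts of 10.5 and 9.17 reads per library, and Lepr in hippocampus with 17, where the SE of the diet differences was 0.264 to 0.386 on the log2 scale.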
